A study of Mus musculus with 6 samples.

Results

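The Wnt ligands described here are 10 genes of this family of secreted signals that pattern the dorsal forebrain: Wnt2b, Wnt3, Wnt3a, Wnt4, Wnt5a, Wnt5b, Wnt7a, Wnt7b, Wnt8b and Wnt9a. They were found by their gene symbol in the authors' deposited comparison table, which named 7 of its 27269 probes for 6 of the 10 genes. The other 4 genes (Wnt2b, Wnt3, Wnt3a and Wnt4) have 1 probe each among the 39429 on the array, matched here by RefSeq accession. Expression was measured on 1-colour Agilent arrays of total RNA from dorsal forebrain dissected at E11.5 from 6 individual mouse embryos, of which 3 are labelled control and 3 mutant. The labels give neither the mutated gene nor any allele, promoter, Cre line or strain, so the groups are called control and mutant throughout. The series title places the study in Wnt/beta-catenin signalling in cortical precursors. Each of the 3 litters gave 1 control and 1 mutant with the same number.

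Wnt proteins are lipid-modified glycoproteins that need Porcn for their acylation and Wls for their release. They bind Frizzled receptors. With the co-receptors Lrp5 and Lrp6 they stabilise beta-catenin, and through receptors such as Ror2 they act without it. In the embryonic telencephalon the cortical hem, the signalling centre at the medial edge of the pallium, makes several Wnt ligands together with Bmp proteins and R-spondins, while Wnt7a and Wnt7b are known from the cortical neuroepithelium.

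The promoters of the only 2 of the 6 measured members whose control and mutant levels did not overlap are shown for orientation, as the 250 bases before the RefSeq start in GRCm38.p6, 5′ to 3′ on the gene's strand. Capitals would mark CTTTGAT or CTTTGAA, a core motif of Tcf and Lef factors, on either strand, and neither window holds one.
Wnt7a (chr6:91411354-91411603, minus strand): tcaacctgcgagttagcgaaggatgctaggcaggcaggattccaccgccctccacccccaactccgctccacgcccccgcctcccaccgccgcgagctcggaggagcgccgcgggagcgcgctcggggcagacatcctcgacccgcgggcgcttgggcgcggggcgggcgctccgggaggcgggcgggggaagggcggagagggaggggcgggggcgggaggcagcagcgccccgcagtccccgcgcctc
Wnt8b (chr19:44493222-44493471, plus strand): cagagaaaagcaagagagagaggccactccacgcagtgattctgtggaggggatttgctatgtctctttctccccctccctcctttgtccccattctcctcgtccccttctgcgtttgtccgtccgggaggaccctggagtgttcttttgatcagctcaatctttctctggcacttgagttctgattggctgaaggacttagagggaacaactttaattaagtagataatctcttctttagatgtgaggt
The Wnt7a window was GC-rich, with 77.6% G and C and 34 CpG dinucleotides, whereas that of Wnt8b had 48.4% and 5, against medians of 52.4% and 6 over all 32851 windows of this length. The RefSeq table held windows for 8 of the 10 members (all but Wnt5a and Wnt7b), 10 windows in all because Wnt5b has several starts. A motif was present in 1 of the 10, a Wnt5b window in which CTTTGAT begins 71 bases before the start, and in 7.48% of all windows. A match is a description of these letters and shows no binding.

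The 75th percentile of the processed signal, to which each array was scaled, ran from 1446 to 1833 in controls and from 1207 to 1380 in mutants, and 68.68% to 70.1% and 65.75% to 67.9% of spots were well above background. No spot was saturated. Levels below are log2 signals relative to that percentile, differences are mutant minus control in log2 with their standard error (SE), and 3 embryos a group limit their precision. The dorsal telencephalic markers Emx1, Emx2, Lhx2 and Pax6 were well above background on all 6 arrays. Emx1, Emx2 and Lhx2 lay below every control in all 3 mutants (differences -0.81, -0.92 and -0.58, limma adjusted p = 0.218, 0.067 and 0.104) and Pax6 above (0.33, adjusted p = 0.199), none of them past the threshold; the part of these shifts in the ligand values was not tested. In genes of some neighbouring tissues mutant 3 was often the lowest of the mutants. This held in 11 of 11 genes listed for the cortical hem, 10 of 10 for meninges and head mesenchyme and 6 of 6 for endothelium. It held in 4 of 5 for choroid plexus, 4 of 6 for surface ectoderm, 1 of 5 for diencephalon and 0 of 5 for subpallium. Of all 21067 genes and unnamed probes tested, it held in 29.5%. In meninges and head mesenchyme, however, mutant 1 lay furthest from the controls. Medians from the control mean were 1.06, -0.24 and -0.72 in mutants 1 to 3 and -0.31 to 0.14 in single controls. In subpallial genes (5 of 6 tested, Nkx2-1 not) control 3 stood apart: they summed to 6.86, 5.77 and 1.17 in controls 1 to 3 and to 8.43, 5.84 and 11.4 in mutants 1 to 3, in units of the 75th percentile. Control 3 also had the highest Wnt8b and the lowest Wnt7a of the controls; without it their differences between mutants and controls were -2.63 and 0.61. Lef1, the nuclear factor through which beta-catenin acts on many targets (difference -1.06, SE 0.13), Axin2, a feedback inhibitor (-0.60, SE 0.19), and Ctnnb1, which encodes beta-catenin (-0.27, SE 0.093), had negative differences, each short of the threshold in limma (adjusted p = 0.089, 0.22 and 0.243).

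Of the 6 members tested, 0 passed an adjusted p of 0.05 in limma, where 7 of the 21067 did (0.0332%). At an unadjusted p under 0.05 there was 1, Wnt7a, against 16.9% of all tested. The members' differences had both signs, 3 positive and 3 negative, with a median of 0.17 against 0.02 over all tested. The groups did not overlap for 2 of the 6, Wnt7a, which was higher in mutants, and Wnt8b, which was lower. Of all tested, 24.9% did not overlap, with 13% higher and 11.9% lower in mutants. In tissue RNA, fewer cells that make a ligand and less of its RNA per cell cannot be told apart.

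**Figure D1:**
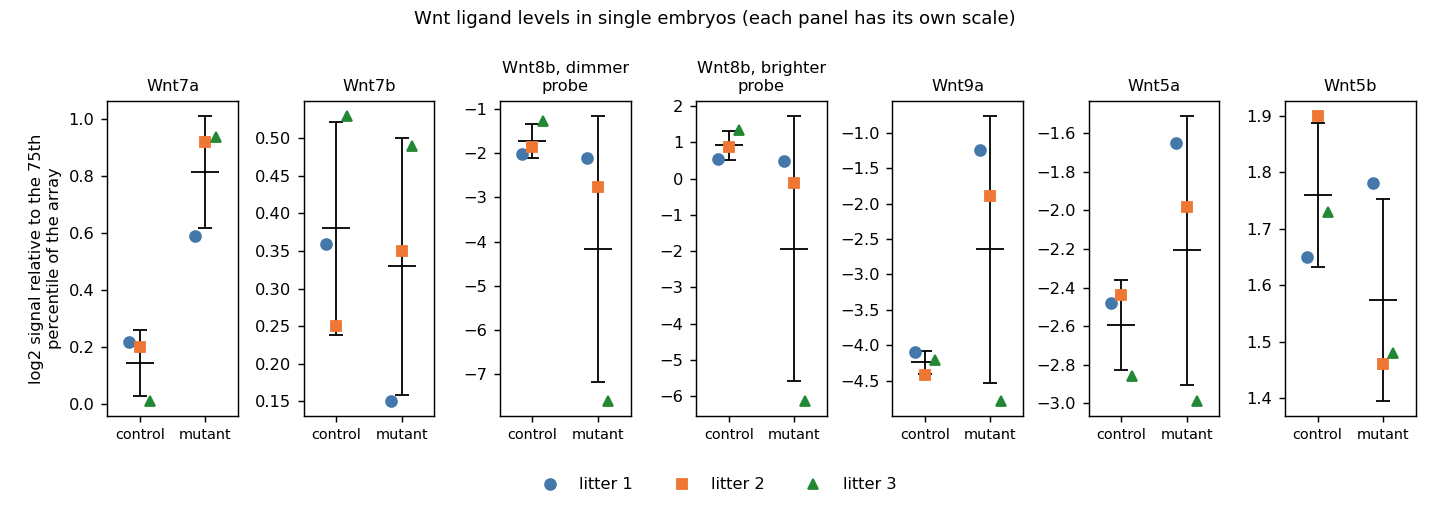
Level of each measured Wnt probe (log2 signal relative to the 75th percentile of the array, 1 panel per probe with its own scale) in 3 control and 3 mutant embryos. Symbols mark litters, the long bar is the group mean and the whiskers are 1 SD. In Wnt7a the mutants lie above the controls, and in Wnt8b mutant 3 lies far below the other 5 embryos with both probes.

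Among the ligands of the cortical neuroepithelium, Wnt7a had the smallest p of the members. Its level was 0.22, 0.20 and 0.01 in controls 1, 2 and 3 and 0.59, 0.92 and 0.94 in mutants 1, 2 and 3. Every mutant thus lay above every control, and therefore also above the control of its own litter, by 0.37, 0.72 and 0.93. The means of 0.14 ± 0.11 and 0.82 ± 0.20 (SD, n = 3 each) differed by 0.67 (SE 0.12), a 1.59-fold higher level with a 95% interval of 1.29 to 1.97 before adjustment for multiple testing. That difference did not pass over all genes (limma, unadjusted p = 0.00184, adjusted p = 0.136). In the authors' deposited table, made from the same 6 arrays, its log2 ratio was 0.6291 with an fdr of 0.0419. That table gave no fdr for 15786 of its 27269 probes, so this fdr and the adjusted p may cover different sets of probes. The unadjusted p of Wnt7a was also smaller there than here. The authors' log2 values, fitted here in limma, gave Wnt7a an adjusted p of 0.0968. The separation of Wnt7a came with the scaling: the unscaled processed signals of 2133, 1701 and 1458 in controls and 1983, 2610 and 2316 in mutants overlapped. Neuron markers were also at higher levels in mutants 2 and 3, with 5 of 7 at an unadjusted p under 0.05 (16.9% of all tested were) and 0 past the threshold in limma. Mutants 1, 2 and 3 exceeded the control mean by medians of 0.09, 0.49 and 0.75 over 7 neuron markers, against -0.11 to 0.07 in single controls, with summed levels of 66.2 to 92.9 in mutants and 57.9 to 61.8 in controls in units of the 75th percentile. The part of neurons in the Wnt7a difference was not tested. The deposited table places its probe, for NM_009527, at bases 91314653 to 91314712 of chromosome 6 (mm9).

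Wnt7b, the close relative of Wnt7a, measured 0.36, 0.25 and 0.53 across controls 1 to 3, compared with 0.15, 0.35 and 0.49 across mutants 1 to 3. The groups overlapped almost fully, and the difference of -0.05 (SE 0.12) was within the spread between embryos (limma, adjusted p = 0.865). Its 95% interval, from 0.783-fold to 1.19-fold, leaves out a change as large as the 1.59-fold estimate for Wnt7a. The probe lies on chromosome 15, from 85366896 to 85366955 (mm9). Adgra2 and Reck, the membrane proteins that make cells responsive to Wnt7 ligands, had differences of -0.02 (SE 0.30) and 0.23 (SE 0.15) that did not pass (adjusted p = 0.982 and 0.476, limma). Adgra2 was at -0.04, -0.62 and -1.22 in mutants 1 to 3 and between -0.83 and -0.47 in controls. Mutant 1 was thus above, mutant 2 within and mutant 3 below the range of the controls.

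Wnt8b, a ligand of the medial pallium and hem, varied among the mutants more than almost any other gene. With the brighter of its 2 probes it measured 0.54, 0.86 and 1.35 across controls 1 to 3, compared with 0.48, -0.12 and -6.15 across mutants 1 to 3. Mutant 1 was next to the lowest control, mutant 2 was moderately lower, and mutant 3 was near background. Within litters the mutant differed from its control by -0.07, -0.98 and -7.5. The unscaled processed signal showed the same order, at 2669, 2683 and 3684 in controls and 1834, 1268 and 17.0 in mutants. The dimmer probe gave -2.02, -1.87 and -1.28 in controls and -2.10, -2.77 and -7.61 in mutants. On that probe, too, every mutant was below every control, and the signal of mutant 3 was not well above background. The probes lie on chromosome 19 from 44588615 to 44588674 and from 44585759 to 44585818 (mm9), so that the loss of signal in mutant 3 did not rest on a single probe.

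The SD of Wnt8b over the mutants was 3.67, the second highest of all 21067 tested, after Rspo2 with 4.0, where the median was 0.16. With that spread the mean difference of -2.85 (SE 1.8) did not pass (limma, adjusted p = 0.461), and its 95% interval runs from -7.21 to 1.51. Without mutant 3 the difference was -0.74 (limma, adjusted p = 0.36), so the size rests on that embryo, while it was -4.05 without mutant 1 and -3.75 without mutant 2. In the authors' deposited table the log2 ratios of the probes were -2.457 and -1.708, with an fdr of 0.268 and 0.207.

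**Figure D2:**
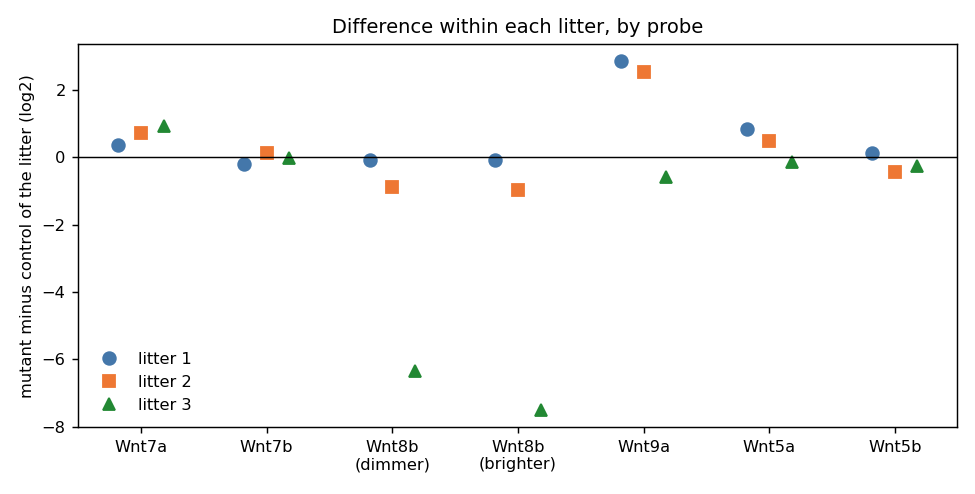
Difference between the mutant and the control of the same litter (log2) for each measured Wnt probe, with 1 symbol per litter. Wnt7a is above 0 in all 3 litters, Wnt9a is at 2.84 and 2.52 in litters 1 and 2 but at -0.58 in litter 3, and Wnt8b reaches -7.5 in litter 3.

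Wnt9a, another ligand of this family, had the same order of mutants as Wnt8b, but mutants 1 and 2 lay above the controls. It measured -4.09, -4.42 and -4.21 across controls 1 to 3, compared with -1.25, -1.90 and -4.79 across mutants 1 to 3. Mutants 1 and 2 were thus above all controls and mutant 3 was below them, so the groups overlapped. Within litters the differences were 2.84, 2.52 and -0.58. The mean difference was 1.59 (SE 0.91, limma, adjusted p = 0.424), 2.67 without mutant 3 (0.107) and 0.90 without mutant 1 (0.59). The probe, on chromosome 11 from 59146953 to 59147012 (mm9), was well above background on all 6 arrays. In the authors' deposited table its log2 ratio was 1.35 with an fdr of 0.231.

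Genes listed for the hem and choroid plexus also varied among the mutants. The summed level of the 11 hem genes was 15.9, 10.3 and 1.52 in mutants 1, 2 and 3 in units of the 75th percentile, and 5.48 to 6.4 in controls. Rspo1, an R-spondin that enhances Wnt signalling, measured 2.82, 2.27 and -3.53 across mutants 1 to 3, compared with 0.44, 1.54 and 1.5 across controls. Rspo3 was at -0.14, 0.25 and -3.43 in mutants and between -1.54 and -0.86 in controls. Lmx1a, a homeobox gene that marks the hem and roof plate, was at -0.51, -0.58 and -2.08 in mutants and between -1.5 and -0.96 in controls. In these 3 genes mutant 3 was below all controls and mutants 1 and 2 above them. The same held for 5 of the 11 hem genes, these 3 included, against 1.37% of all tested. It also held for 2 of 5 choroid plexus genes and 2 of 6 endothelial genes, and for 0 of 10 meningeal and mesenchymal genes. Mutants 1 and 2 were above all controls in 7 of the 11 hem genes and mutant 3 below all controls in 7. Bmp7, a Bmp ligand, was below all controls in every mutant, at 0.14, -0.29 and -1.94 against 0.23 to 0.66. Of the 8 choroid plexus genes listed, Ttr, the main secreted product of that tissue, was well above background on 1 array, and Kcne2 and Kl on 0. The summed level of the 5 tested was 4.0, 2.75 and 2.23 in mutants 1 to 3 and 2.61, 2.84 and 0.864 in controls 1 to 3, with Otx2 at -2.77 in control 3 and between 0.71 and 1.52 elsewhere. The median of the 5 lay 1.79 and 1.45 above the control mean in mutants 1 and 2 and at -0.46 from it in mutant 3. Mutants 1 and 2 were above all controls in 3 of the 5. Enpp2 went the other way and was below all controls in every mutant, at -1.09, -1.63 and -2.05 against -0.96 to -0.8 (limma, adjusted p = 0.235). Meningeal and mesenchymal genes (10 of 10 tested) summed to 42.7, 19.8 and 14.1 in mutants 1, 2 and 3, against 19.3 to 29.1 in controls. Rspo2 and Bmp6 were each well above background on 1 of the 3 control arrays. The part of these tissues in the Wnt8b and Wnt9a values was not tested.

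**Figure D3:**
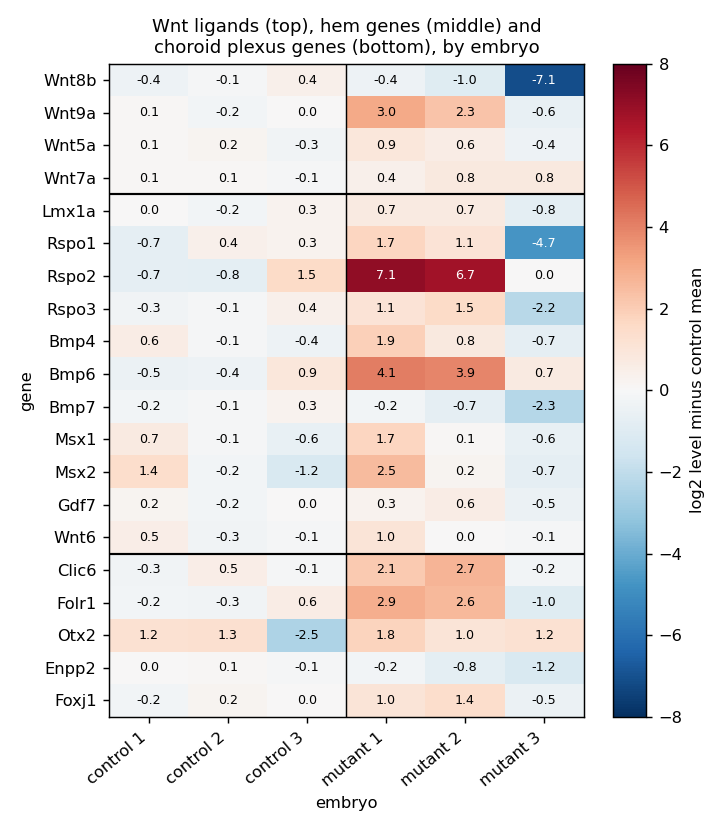
Level minus the control mean (log2, colour and printed value) in each embryo for 4 Wnt ligands (top), 11 cortical hem genes (middle) and the 5 tested choroid plexus genes (bottom). Mutant 3 is lowest of the mutants in all 11 hem genes, and Rspo2 and Bmp6 are raised in mutants 1 and 2 as Wnt9a is, whereas Wnt8b is not.

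Wnt8b and Wnt9a thus parted in mutants 1 and 2, where Wnt9a was higher than in controls and Wnt8b was not. By a rule on likeness over the 6 embryos (the highest Pearson r among named genes with an SD of at least 0.5), the genes most like Wnt8b were Ahsp, an erythroid chaperone of alpha-globin (r = 0.998), the water channel Aqp3 (0.993) and the neuropeptide gene Nmu (0.991). Mutant 3 was lowest in each, and over the other 5 embryos r was 0.95, 0.75 and 0.62. Those most like Wnt9a were Gm1968 (r = 0.979), Folr1, a folate receptor of the choroid plexus (0.973), and Krt8, a keratin of simple epithelia (0.973). Folr1 was at -1.82, -2.12 and -5.71 in mutants 1 to 3 and between -5.03 and -4.12 in controls, and r over the other 5 embryos was 0.97. These are descriptions of 6 arrays, picked from 1665 genes. In mutant 3 Gm1968 (-7.33) and Nmu (-9.1) were below -7.095, the lowest level well above background on that array.

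Wnt3a, the canonical ligand of the hem, lies next to Wnt9a on chromosome 11, with no annotated gene between them in the RefSeq annotation. Its probe was well above background on 1 of the 6 arrays, that of mutant 2, and was not tested. Its unscaled processed signal was 2.94, 2.33 and 2.57 in controls 1 to 3 and 6.25, 20.9 and 2.35 in mutants 1 to 3. Mutants 1 and 2 were the higher embryos, as for Wnt9a, although mutant 1 was not well above background. The probes of Wnt2b and Wnt3, both ligands that act through beta-catenin, and of Wnt4 were well above background on 0 arrays. Their unscaled signals ran from 2.12 to 3.95, from 5.31 to 14.2 and from 2.30 to 15.2. At this sensitivity no fold change can be given for these 3 genes.

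Wnt5a and Wnt5b are known for signalling without beta-catenin, in planar polarity and cell movement. Wnt5a measured -2.48, -2.44 and -2.86 across controls 1 to 3, compared with -1.65, -1.98 and -2.99 across mutants 1 to 3. As with Wnt9a, mutants 1 and 2 were above all controls and mutant 3 below them, by smaller amounts. The difference of 0.39 (SE 0.36) did not pass (limma, adjusted p = 0.615), and it was 0.11 without mutant 1, 0.78 without mutant 3 and 0.26 without control 3. The genes most like Wnt5a were Prrg4 (r = 0.986), Nbl1, a secreted Bmp antagonist (0.976), and Dnajc22 (0.968), and r between Wnt5a and Wnt9a was 0.93 over the 6 embryos.

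Wnt5b measured 1.65, 1.90 and 1.73 across controls 1 to 3, compared with 1.78, 1.46 and 1.48 across mutants 1 to 3. Mutants 2 and 3 were below all controls and mutant 1 within their range. The difference of -0.19 (SE 0.12) did not pass (limma, adjusted p = 0.472), with a 95% interval from 0.712-fold to 1.08-fold. The differences were 0.13 on slide 1, which holds litter 1, and -0.35 on slide 2. The probes lie on chromosome 14 from 29336664 to 29336723 for Wnt5a and on chromosome 6 from 119382550 to 119382609 for Wnt5b (mm9). Ror2, a receptor of Wnt5a, measured 2.13, 2.16 and 2.5 across controls, compared with 0.85, 0.69 and 0.85 across mutants, a difference of -1.46 (SE 0.12) just short of the threshold (limma, adjusted p = 0.0546). All 3 mutants were far below all controls for this receptor, in contrast to the overlapping levels of both ligands.

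Of the 9 other Wnt genes, 5 were tested and 0 passed in either direction in limma, with 2 at an unadjusted p under 0.05, where 16.9% of all tested were. Wnt10a measured -3.89, -3.48 and -2.86 across controls, compared with -5.34, -5.34 and -5.95 across mutants (difference -2.14, SE 0.31, adjusted p = 0.104). It was lower in all 3 mutants, mutant 3 included, with an SD of 0.36 over the mutants. Wnt11 had a difference of 0.44 (SE 0.11, adjusted p = 0.191) and Wnt1 one of 0.15 (SE 0.082, adjusted p = 0.415). The median of the 5 was 0.28.

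The other Wnt pathway genes likewise held 0 that passed in limma in either direction, in lists of secretion and deactivation (4 of 4 tested), receptors (17 of 18), secreted modulators (15 of 18), intracellular components (18 of 18) and targets (13 of 14). At an unadjusted p under 0.05, where 16.9% of all tested lay, the secretion list had 0 higher and 1 lower, the receptors 2 and 4, the secreted modulators 2 and 2, the intracellular components 0 and 2, and the targets 0 and 5. Medians were -0.05, -0.02, 0.14, -0.02 and -0.28 in that order, against 0.02 over all tested. In the machinery that releases Wnt proteins, the acyltransferase Porcn (0.18, SE 0.10) and the carrier Wls (-0.09, SE 0.41) did not pass. Wls was at 0.30, -0.20 and -1.33 in mutants 1 to 3 and between -0.44 and -0.18 in controls, so that mutant 1 was above, mutant 2 within and mutant 3 below their range. Trabd2b, a protease that inactivates Wnt proteins, was at -2.70, -2.71 and -2.92 in mutants and between -1.92 and -1.84 in controls (difference -0.91, SE 0.087, adjusted p = 0.0546).

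Among the Frizzled receptors Fzd1 (-0.82, SE 0.11, adjusted p = 0.0986) and Fzd9 (-0.95, SE 0.14, adjusted p = 0.104) had negative differences that did not pass. The secreted inhibitor Wif1 was at -4.08, -5.05 and -6.18 in mutants and between -1.97 and -1.38 in controls (-3.44, SE 0.53, adjusted p = 0.105). Kremen1, a Dkk receptor, and the Dkk family member Dkk3 were higher in all 3 mutants than in any control, by 0.45 (SE 0.10) and 0.74 (SE 0.22) on average, again without passing. Among intracellular components Tcf7 had -0.79 (SE 0.22, adjusted p = 0.199) and Tcf7l2 0.19 (SE 0.076, adjusted p = 0.301). Among targets Tnfrsf19 had -1.36 (SE 0.12, adjusted p = 0.0546), and Sp5, a zinc-finger factor well above background in 2 of the 3 mutants, -4.09 (SE 0.86, adjusted p = 0.152). These targets were named for their small p. Of the 13 tested, 5 were lower in all 3 mutants than in any control and 0 higher, against 11.9% and 13% of all tested.

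**Figure D4:**
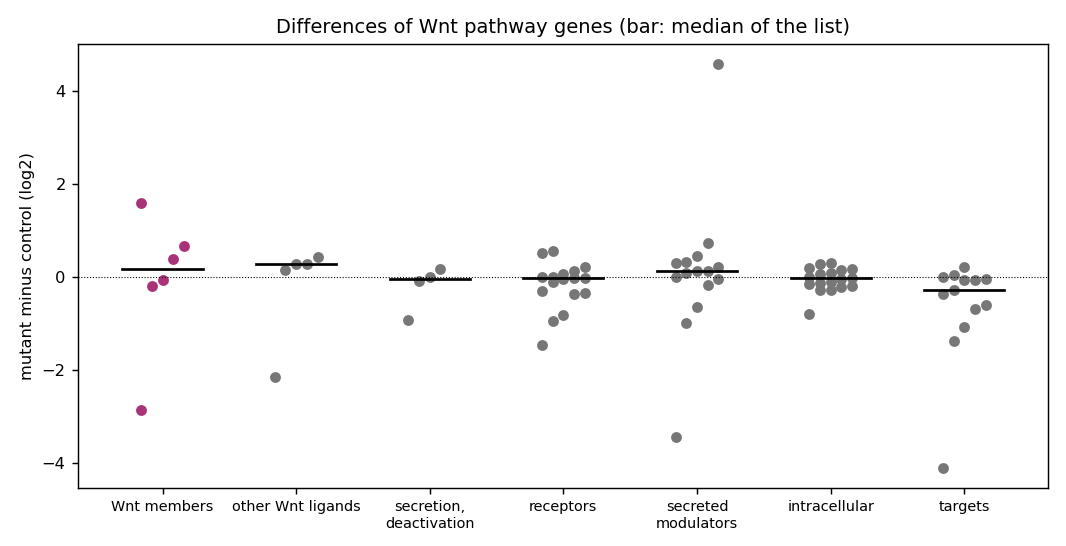
Difference between mutants and controls (log2) for each tested gene of 7 Wnt pathway lists, 1 point per gene, with the list median as a bar. The 6 tested members lie between -2.85 and 1.59 with a median of 0.17, and the target list has the lowest median, -0.28.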

How the data were processed

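Spot intensities (linear, 1 file per array) were deposited as written by Agilent Feature Extraction 10.7.3.1 for design 026655 with an mm9 grid; background was subtracted within each array and no scaling between arrays was applied, per the file headers. A further table that the authors deposited gives log2 values, a log2 ratio, the ratio and a p-value for each probe. It gives an fdr for part of the probes only, with none for 15786 of 27269. How it was normalized is not stated in the labels or headers, and the submitters' processing notes name limma. Its columns were used by group only.

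Outlier spots were left out, log2 processed signals of a probe's spots averaged, and the array's 75th percentile over non-control spots subtracted. Probes had to be well above background in 3 or more of the 6 embryos, and each gene was represented by its brightest one (21067 rows). Probes were named by RefSeq accession (26581), else by the table's symbol, and 9728 stayed unnamed. Mutants were tested against controls in limma 3.58.1 (lmFit, eBayes; R 4.3.3), two-sided, with Benjamini-Hochberg adjustment over all rows and a threshold of 0.05, checked on simulated data. Intervals are 95%, unadjusted. Files were read and plotted in Python 3.11.15 with pandas 2.3.3, numpy 2.4.6 and matplotlib 3.10.9.

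Each title names a litter, and every litter holds 1 control and 1 mutant, which pairs the samples. Deviations from group means correlated at 0.308, 0.357 and 0.107 within litters 1 to 3 and at -0.41 to 0.109 between litters, so litter 3 did not stand out. By array barcode, litter 1 was on slide 1 and litters 2 and 3 were on slide 2. The members and gene lists were chosen with earlier results of these data known. Named genes are the 10 members, the 3 genes most like each of the 3 most variable members (genes with a name), up to 3 genes of smallest p per pathway list, and Ctnnb1, Lef1 and Axin2. A listed gene is not reported here. Rspo1, Rspo3, Lmx1a, Adgra2 and Reck were chosen after their values were seen. Alternatives were normexp background correction on the median spot signal, quantile and median scaling, other filters and probe choices, litter or slide as a block, variance trend with robust variance, the authors' log2 values, omission of each embryo and, added after seeing the data, slide 2 alone.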

Additional observations from a re-analysis of the deposited data

How the results depend on the processing

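Over 109 fits of the 6 members under the alternatives, 0 passed the threshold and 106 kept their sign. Under several alternatives, given below, 0 of all rows passed, so those fits say little about the members' calls. The 3 others were Wnt7b, whose difference of -0.05 was 0.0323 on slide 2 alone and ran from -0.13 to 0.0426 with 1 embryo left out. The lowest adjusted p of Wnt7a, the member nearest the threshold, was 0.0618 with normexp background correction (range over alternatives 0.0618 to 0.468), at differences from 0.57 to 0.82. The difference of Wnt8b ran from -4.05 to -0.74 and that of Wnt9a from 0.90 to 2.67 with 1 embryo left out, and on slide 2 alone they were -4.24 and 0.97. Wnt5a ran from 0.11 to 0.78 and was 0.17 on slide 2, and Wnt5b ran from -0.29 to -0.12, with -0.29 under median centring. With litter as a replicate block 0 members passed, and the block changed no member's call, but 0 of all rows passed in that fit. The count of 7 genes changed over all rows was 131 with normexp, 143 with variance trend and robust variance, 26 with probes above background on all arrays, 22 with median centring or with the authors' log2 values, 15 with quantile normalization, 2 when a gene's probes were averaged, and 0 with no filter, with litter or slide as a block, or on slide 2 alone. It ran from 0 to 1 with 1 embryo left out. Of these calls 28.57% were higher, against 50.38% with normexp and 18.18% with median centring, which moved the median of all rows by -0.103. Rows at an unadjusted p under 0.05 numbered 7916, 4181, 4149 and 3847 for no filter, litter block, slide block and slide 2, against 3569. The cause of these shifts was not tested. The signal over background limits Wnt2b, Wnt3, Wnt3a and Wnt4, and 3 embryos a group limit every value.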
